A study of Mus musculus with 8 samples.

Results

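The disallowed genes of the beta cell are genes that most tissues transcribe and that mature insulin-secreting cells keep low. A given list of 31 such genes was matched by symbol through GENCODE M21, and all 31 were found among the 55487 gene identifiers of the files. They were followed in 4 Chd4KO and 4 Control libraries of RNA from sorted pancreatic beta cells. Both groups of mice had received tamoxifen, and per the labels Chd4KO mice carry a deletion of Chd4 in beta cells while the other mice are called Control. The Cre driver, the floxed allele, and the age, sex and strain of the mice are not given in the sources used here. Each library has its own animal number, so replicates were taken as separate mice. All Control animal numbers are lower than all Chd4KO numbers, and any difference in litter or date cannot be told apart from genotype. Chd4 is the nucleosome-moving helicase of the NuRD corepressor complex.

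Beta cells couple the oxidation of glucose to insulin release, and the pyruvate made in glycolysis is sent almost wholly to mitochondria. Lactate dehydrogenase A and the plasma membrane monocarboxylate carrier MCT1, encoded by Ldha and Slc16a1, would divert pyruvate or let circulating lactate and pyruvate act as fuel. In humans, mutations that raise MCT1 in beta cells lead to insulin release during exercise. Other genes of the list encode redox and amino acid enzymes, secreted and matrix proteins, transcription regulators such as the neuronal-gene repressor Rest, and cytoskeletal proteins.

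Reads in genes numbered 14928092 to 20164428 in Chd4KO libraries and 16392746 to 41014291 in Control libraries. Levels are given as TPM, the share of a library's transcripts corrected for gene length. Chd4 itself had 2.59 to 8.38 TPM in Chd4KO and 11.1 to 15.98 TPM in Control, without overlap. The insulin genes together took 32.4 to 62.0% of TPM in Chd4KO and 38.1 to 41.8% in Control, and the highest share was that of Chd4KO replicate 4. The 15 acinar markers, genes of the enzyme-secreting cells around islets, summed to 39895 TPM in Chd4KO replicate 2 and to 3.40 to 230 TPM in the other Chd4KO libraries, against 6.68 to 1568 TPM in Control. The 10 mesenchymal and stellate markers summed to 0.967 to 1.70 TPM in Chd4KO and 0.207 to 1.03 TPM in Control, and none of them exceeded 0.568 TPM in any library. Because these are bulk libraries, fewer expressing cells and less RNA per cell cannot be told apart.

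The label held for most of the list. In the Control mean, 21 of the 31 genes (67.7%) lay under 1 TPM, against 48.0% of 21974 protein-coding genes. The median of the list was 0.707 TPM in Chd4KO and 0.343 TPM in Control, beside 1.39 TPM for protein-coding genes in each group. In both group means 16 genes lay under 1 TPM, and 14 stayed under 1 TPM in all 8 libraries. Of the other 10 genes, Cat, Arhgdib, Ldha, Gas6 and Mylk had Control means between 1.04 and 4.10 TPM, and C1qbp, Ccnd1, Oat, Zyx and Mgst1 had means between 9.75 and 20.9 TPM. Ccnd1, the cyclin D1 gene, ranked at percentile 82.3 of protein-coding genes in Chd4KO and 80.4 in Control, and was therefore not low in these cells.

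**Figure D1:**
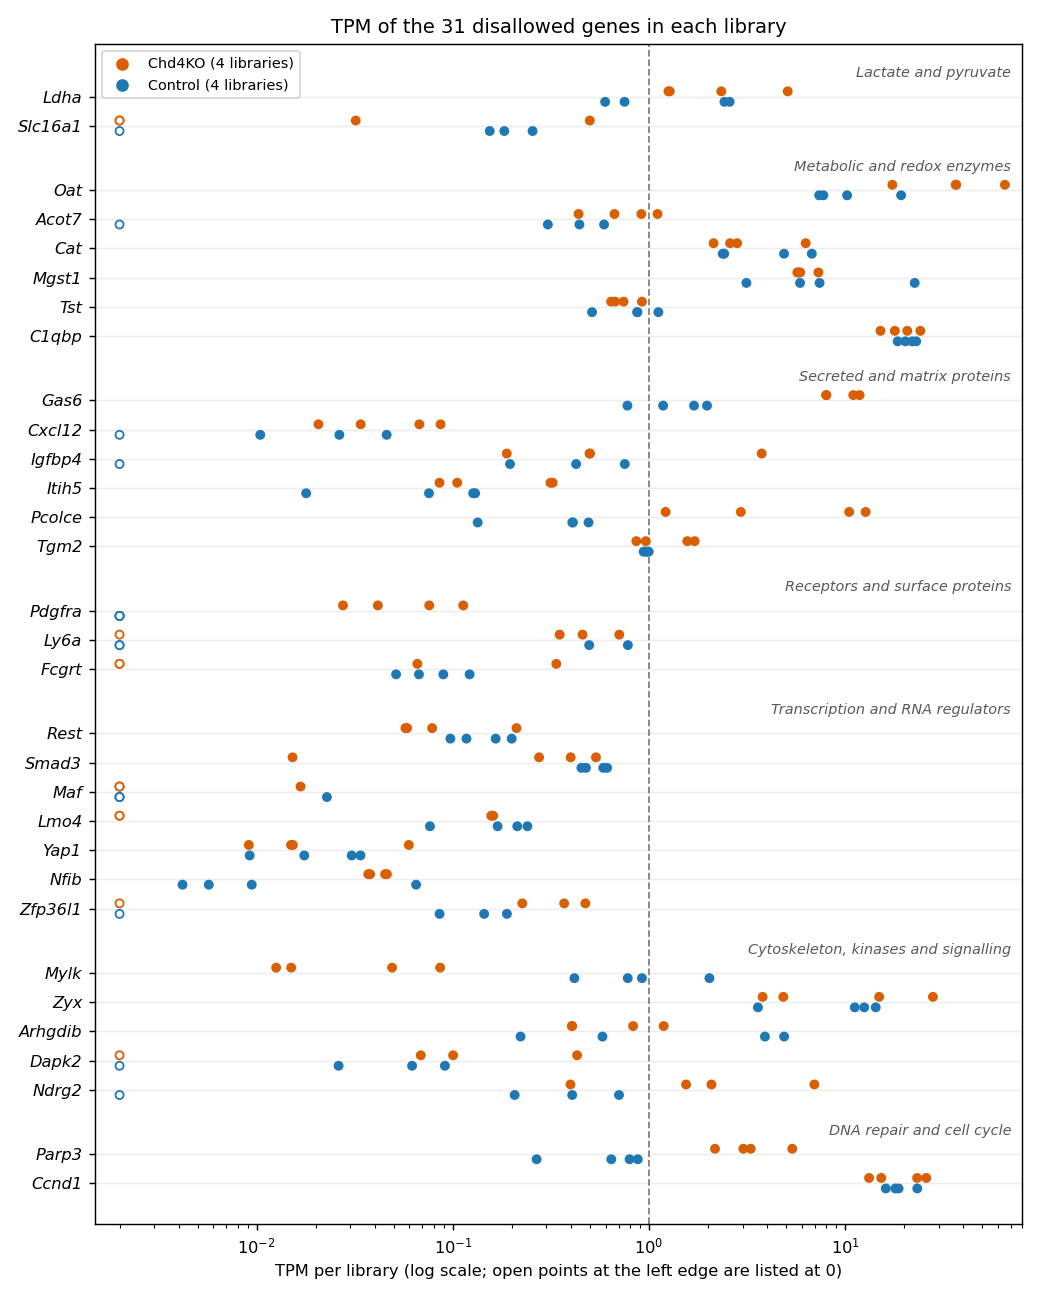
Each row is 1 disallowed gene and each point 1 library, with Chd4KO above Control; the horizontal axis is TPM on a log scale, the dashed line marks 1 TPM, and open points at the left edge are libraries listed at 0. The Gas6, Parp3, Pcolce and Pdgfra points of Chd4KO lie to the right of all Control points, those of Mylk lie to the left, and 14 genes have no point past 1 TPM.

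In the comparison of Chd4KO with Control, Gas6 and Parp3 rose and no gene of the list fell in the main test. That test was limma on log2(TPM + 1), with p-values adjusted over the 15189 genes that reached 1 TPM in at least 4 libraries, and genes with an adjusted p below 0.05 were called. Of the 31 genes 10 were tested, 2 were called and 8 were not, whereas 2.97% of all tested genes were called (1.53% higher and 1.44% lower). Chd4, the deleted gene, was itself not called (log2 change -1.18, limma adjusted p = 0.0725), so a gene that was not called may still differ. Parp3 and Pcolce reached the filter only through their Chd4KO libraries, so the count of tested genes leans towards risen ones. The other 21 genes were too low for this test, and their values in each library are given instead. Without the filter, 2 of 31 were called, the same 2 genes, beside 1.58% of all genes (0.852% higher and 0.728% lower). The Chd4KO and Control values did not overlap for 5 of the 31 genes (16.1%), with Gas6, Parp3, Pcolce and Pdgfra higher and Mylk lower. Over both directions, that share is close to the 13.1% found among the 23146 genes with at least 10 reads (3.98% higher and 9.09% lower in Chd4KO). It is also close to the 14.8% among genes tested with limma (3.54% higher and 11.3% lower). The direction differed, with 4 list genes higher and 1 lower, whereas more of all genes were lower than higher. This difference was not tested.

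A second test used reads recovered from TPM and gene length, and was added after the values had been seen so that low genes could be judged on their reads. It was limma's voom on all 23146 genes with at least 10 reads in total, of which 4.72% were called (3.28% higher and 1.43% lower). Of the 30 list genes tested, 6 were called: Gas6, Parp3, Pcolce, Oat and Pdgfra higher and Mylk lower. The other 24 were not called, and Maf was left out with 4 reads in all. Chd4 was called lower in this test (log2 change -1.05, voom adjusted p = 0.00812). The median log2 change of the 30 genes was 0.78, beside 0.00 for all genes in that test. In limma without the filter, on a scale that understates changes of low genes, the median of the 31 genes was 0.04, beside -0.06 for all genes. Of the 31 genes 10 had a median of under 10 reads in Control, so the median on reads rests partly on trace counts.

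**Figure D2:**
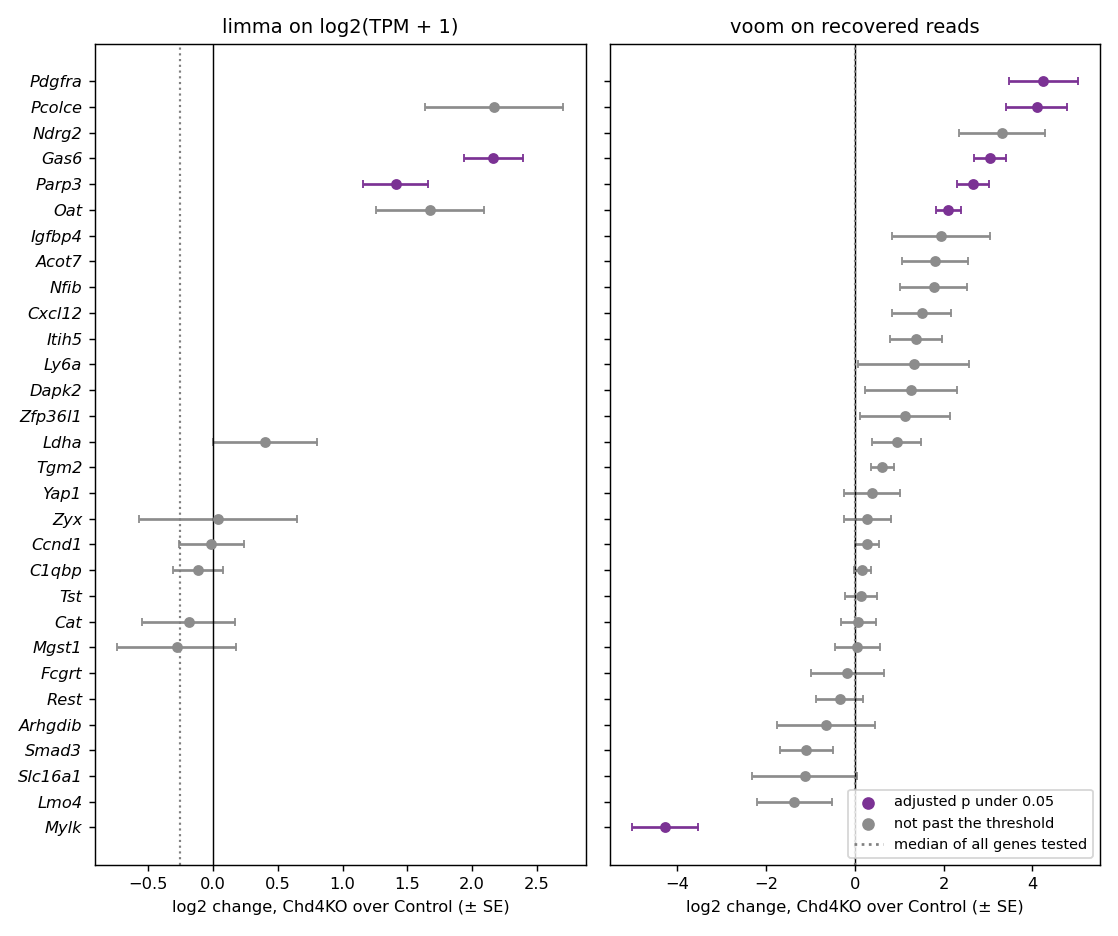
The log2 change of Chd4KO over Control is plotted with its standard error for the disallowed genes, from limma on log2(TPM + 1) at the left and from voom on recovered reads at the right. Purple points passed an adjusted p of 0.05, Gas6 and Parp3 at the left and 6 genes at the right; the dotted line is the median of all genes tested, and the Pdgfra value depends on the prior count because Control had 0 reads.

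The promoters of the 5 genes without overlap are shown because their TPM separates all Chd4KO from all Control libraries. Each window runs from 250 bases before to 50 bases after the RefSeq start (GRCm38.p6, whose primary assembly is that of mm10), 5′ to 3′ on the gene's strand. A promoter was listed for 24 of the 31 genes, and the first listed window was used. Capitals mark matches to 2 motifs searched on both strands. The NeuroD-type E-box is spelled CAGATG in one direction and reads as CATCTG in the other. The Maf half-site is spelled TGCTGAC in one direction and reads as GTCAGCA in the other.
Gas6: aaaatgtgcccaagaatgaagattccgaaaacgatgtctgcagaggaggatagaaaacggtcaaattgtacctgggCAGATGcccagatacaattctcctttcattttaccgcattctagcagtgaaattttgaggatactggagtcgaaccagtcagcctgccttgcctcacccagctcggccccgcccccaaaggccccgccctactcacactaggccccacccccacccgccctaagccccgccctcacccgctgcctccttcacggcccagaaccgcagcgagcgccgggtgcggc
Parp3: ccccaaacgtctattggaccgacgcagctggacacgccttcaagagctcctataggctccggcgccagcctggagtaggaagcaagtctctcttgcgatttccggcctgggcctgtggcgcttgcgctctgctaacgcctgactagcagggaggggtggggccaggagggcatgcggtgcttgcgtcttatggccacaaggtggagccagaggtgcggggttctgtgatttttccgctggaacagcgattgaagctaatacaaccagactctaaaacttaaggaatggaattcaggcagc
Pcolce: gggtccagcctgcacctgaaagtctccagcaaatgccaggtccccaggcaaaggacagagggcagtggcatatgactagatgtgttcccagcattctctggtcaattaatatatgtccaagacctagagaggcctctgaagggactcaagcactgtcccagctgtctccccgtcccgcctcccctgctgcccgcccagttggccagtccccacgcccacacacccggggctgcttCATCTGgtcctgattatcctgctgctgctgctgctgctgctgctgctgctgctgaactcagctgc
Pdgfra: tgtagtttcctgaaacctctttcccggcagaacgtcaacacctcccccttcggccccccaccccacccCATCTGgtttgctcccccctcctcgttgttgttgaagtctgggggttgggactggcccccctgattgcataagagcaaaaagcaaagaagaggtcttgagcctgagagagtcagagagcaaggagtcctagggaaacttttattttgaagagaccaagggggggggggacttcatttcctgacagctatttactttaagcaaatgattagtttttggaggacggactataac
Mylk: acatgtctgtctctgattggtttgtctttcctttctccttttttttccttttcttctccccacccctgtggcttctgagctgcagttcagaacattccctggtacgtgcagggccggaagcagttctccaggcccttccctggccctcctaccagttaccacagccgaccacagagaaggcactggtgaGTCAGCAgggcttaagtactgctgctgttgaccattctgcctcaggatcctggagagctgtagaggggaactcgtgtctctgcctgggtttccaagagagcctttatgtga

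The Gas6 window is chr8:13494486-13494785 (minus strand), that of Parp3 chr9:106476900-106477199 (minus), that of Pcolce chr5:137611355-137611654 (minus), that of Pdgfra chr5:75152001-75152300 (plus) and that of Mylk chr16:34784700-34784999 (plus). The Pcolce and Mylk windows lie inside the longer spans that GENCODE gives these genes. The E-box letters occur in Gas6 174 bases before the start, in Pdgfra 182 bases and in Pcolce 15 bases before it. They occur in 4 of the 24 windows, the other being Igfbp4, and in 17.2% of 27025 promoters of all genes. The Maf half-site letters occur in 1 of the 24, that of Mylk, 61 bases before the start, and in 4.58% of all promoters. The homeodomain core TAATTA was found in none of the 24 and in 5.31% of all promoters. The 3 motifs have no match in common, and a match describes letters in the window and not binding. A CpG ratio, observed over expected, of at least 0.6 was reached by 14 of the 24 windows and by 36.5% of all promoters. Among the windows printed, Gas6 and Parp3 reached it at 0.705 and 0.648, whereas Pdgfra, Pcolce and Mylk were at 0.256, 0.194 and 0.189.

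Of the lactate and pyruvate genes, the best known of the list, Ldha was tested and not called, and Slc16a1 was below the filter. Positions here are those of GENCODE M21 on GRCm38. Ldha (chromosome 7, 46841475 to 46855627) had 2.33, 5.09, 1.26 and 1.28 TPM in Chd4KO replicates 1 to 4, against 0.597, 0.750, 2.42 and 2.57 TPM in Control replicates 1 to 4. The groups overlap, with the highest value in Chd4KO replicate 2 and the lowest values in Control replicates 1 and 2. The means were 2.49 ± 1.81 TPM in Chd4KO and 1.59 ± 1.06 TPM in Control (SD, n = 4 each), and the log2 change was 0.40 ± 0.40 (SE) with a limma adjusted p of 0.6. RefSeq names 3 pseudogenes after Ldha, so reads may be lost to near-identical copies and its level is uncertain. Ldhb, the heart-type subunit of the same enzyme, was at 27.4 ± 8.25 TPM in Chd4KO and 25.6 ± 4.21 TPM in Control. Ldha made up 3.49 to 14.5% of the summed Ldha and Ldhb TPM in Chd4KO and 1.94 to 11.4% in Control (exact permutation p = 0.486, two-sided).

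Slc16a1 (chromosome 3, 104638668 to 104658462) was near the limit of detection everywhere. It had 0.499, 0.032, 0 and 0 TPM in Chd4KO replicates 1 to 4, which rest on 16, 1, 0 and 0 reads. In Control replicates 1 to 4 it had 0, 0.183, 0.154 and 0.255 TPM, from 0, 15, 8 and 18 reads. A count of 0 allows up to 3 reads, or 0.0939 TPM in Chd4KO replicate 3, 0.0572 TPM in Chd4KO replicate 4 and 0.0957 TPM in Control replicate 1 (counting error only). The groups overlap, and in the test on reads the log2 change was -1.13 ± 1.18 (SE, voom adjusted p = 0.654). Of 17 partner genes, such as other lactate and pyruvate carriers and hexokinases, 10 were tested and none was called, and their median log2 change was -0.50, beside -0.25 for all genes tested. The 2 with the highest levels were Bsg, the chaperone that brings MCT1 to the membrane, at 553 ± 96.0 TPM in Chd4KO and 486 ± 17.1 TPM in Control, and its relative Emb, at 117 ± 42.1 and 205 ± 34.0 TPM (SD, n = 4 each). Emb values in Chd4KO lay below all Control values (limma adjusted p = 0.195).

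Among the metabolic and redox enzymes Oat stood out. Oat (chromosome 7, 132557478 to 132576398) encodes mitochondrial ornithine aminotransferase, which links ornithine to glutamate and proline. It had 65.1, 36.5, 36.8 and 17.4 TPM in Chd4KO replicates 1 to 4, against 19.3, 7.36, 7.73 and 10.2 TPM in Control replicates 1 to 4. Only Chd4KO replicate 4 lay within the Control range, below Control replicate 1. The means were 39.0 ± 19.7 TPM in Chd4KO and 11.1 ± 5.56 TPM in Control (SD, n = 4 each), 3.50-fold higher in Chd4KO. The log2 change of 1.67 ± 0.42 (SE) did not pass limma's test (adjusted p = 0.0731), but it passed with median-of-ratios scaling (1.94, adjusted p = 0.00566) and without Chd4KO replicate 4 (2.001, adjusted p = 0.0219). In the test on reads it was 2.11 ± 0.29 (SE, voom adjusted p = 0.00263). Fgfr2 overlaps the span of Oat in GENCODE but shares no exon bases with it.

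Of 13 other genes of ornithine, proline and glutamate metabolism, 11 were tested and none was called, with a median log2 change of -0.18. Among them Aldh18a1, which makes a precursor of proline, was at 158 ± 71.0 TPM in Chd4KO and 167 ± 31.5 TPM in Control (SD, n = 4 each).

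The remaining enzymes were not called. Cat, the catalase that breaks down hydrogen peroxide, was at 3.45 ± 1.91 TPM in Chd4KO and 4.10 ± 2.12 TPM in Control (SD, n = 4 each, limma adjusted p = 0.782). Mgst1, a membrane-bound glutathione transferase, had 5.70 to 7.30 TPM in Chd4KO and 3.13 to 22.6 TPM in Control, where replicate 1 was high. C1qbp, a mitochondrial matrix protein, was at 19.5 ± 3.86 and 20.9 ± 1.97 TPM. The acyl-CoA thioesterase gene Acot7 lay between 0.437 and 1.10 TPM in Chd4KO and between 0 and 0.590 TPM in Control, and Tst, which detoxifies cyanide, between 0.641 and 0.920 TPM and between 0.512 and 1.12 TPM.

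Gas6 showed the firmest difference among the secreted proteins and in the whole list. It encodes a ligand of the TAM receptor kinases Tyro3, Axl and Mertk (chromosome 8, 13465374 to 13494490, minus strand). Its TPM was 8.01, 11.8, 10.98 and 7.98 in Chd4KO replicates 1 to 4, against 0.776, 1.69, 1.97 and 1.18 in Control replicates 1 to 4. The lowest Chd4KO value lay far above the highest Control value, on 148 to 241 reads per library in Chd4KO and 14 to 80 in Control. The means were 9.70 ± 1.998 TPM and 1.41 ± 0.534 TPM (SD, n = 4 each), 6.90-fold higher in Chd4KO. The log2 change was 2.16 ± 0.23 (SE, limma adjusted p = 0.00147), which is 2.42 above the median of all genes tested, and 3.05 ± 0.36 in the test on reads (voom adjusted p = 0.00128). Gas6 was also called in all 19 alternative fits. Beside it, the 8 endothelial markers summed to 6.38 to 9.75 TPM in Chd4KO and 5.59 to 6.10 TPM in Control, with 2 tested and none called. Of those 2, Egfl7 averaged 2.88 ± 0.700 TPM in Chd4KO and 1.30 ± 0.1798 TPM in Control (SD, n = 4 each, limma adjusted p = 0.0733), without overlap. Esam averaged 3.32 TPM in Chd4KO and 4.10 TPM in Control, lower without overlap. Of the 13 leukocyte markers 7 were tested and 2, Cd68 and Fcer1g, rose. The sum of the 13 was 127 to 224 TPM in Chd4KO and 121 to 150 TPM in Control. C1qa was the largest part of this sum in every library, at 107 ± 35.5 TPM in Chd4KO and 105 ± 11.8 TPM in Control, with overlap. The B cell gene Cd79a averaged 12.2 TPM in Chd4KO and 2.60 TPM in Control, higher without overlap (limma adjusted p = 0.0884). Cdh5 of endothelium was listed at 0 in all libraries but Chd4KO replicate 4, which had 1 read. Pecam1 and Plvap of endothelium averaged 0.470 and 0.585 TPM in Chd4KO, against 0.154 and 0.249 TPM in Control, with overlap. Of the endothelial markers only Esam had a lower mean in Chd4KO. Ptprc of leukocytes did not exceed 0.158 TPM in Chd4KO and 0.831 TPM in Control. The part of these cells in the Gas6 values was not tested.

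Gas6 shares 34 exon bases with Tmem255b on the opposite strand, and these libraries do not mark strand. Tmem255b had 1.40, 2.33, 3.15 and 2.03 TPM in Chd4KO replicates 1 to 4, against 0.268, 0.512, 0.431 and 0.119 TPM in Control replicates 1 to 4. It rose too, by a log2 change of 1.26 (limma adjusted p = 0.016), and reads over the shared bases cannot be assigned to either gene. Of 6 genes tied to Gas6 or its receptors, 3 were tested and none was called. Tyro3 was at 0.425 ± 0.523 TPM in Chd4KO and 0.326 ± 0.132 TPM in Control, Axl at 0.379 ± 0.436 and 0.229 ± 0.144 TPM, and Mertk at 0.016 ± 0.018 and 0.049 ± 0.068 TPM (SD, n = 4 each). These receptor genes were picked for display because they bind Gas6. The highest of the 6 were the vitamin K cycle genes Ggcx, at 71.7 ± 30.2 and 98.5 ± 14.9 TPM, and Vkorc1, at 39.8 ± 12.7 and 25.5 ± 0.682 TPM.

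Pcolce, whose product speeds the cleavage of procollagens (chromosome 5, 137605103 to 137613784, minus strand), was also higher in all Chd4KO libraries, with a wide spread among them. It had 10.5, 12.7, 2.94 and 1.21 TPM in Chd4KO replicates 1 to 4, against 0.406, 0.409, 0.134 and 0.492 TPM in Control replicates 1 to 4. All Chd4KO values lay above Control, with replicates 1 and 2 far above replicates 3 and 4. The means were 6.83 ± 5.61 TPM and 0.360 ± 0.156 TPM (SD, n = 4 each), 18.96-fold higher in Chd4KO. The log2 change of 2.17 ± 0.54 (SE) did not pass limma's test (adjusted p = 0.0715). It passed with a pseudocount of 0.1 (adjusted p = 0.049) and with the 3 other scalings (adjusted p between 0.00952 and 0.015). The 769 Chd4KO reads and 76 Control reads gave 4.09 ± 0.70 in the test on reads (SE, voom adjusted p = 0.00756). The acinar sum was highest in Chd4KO replicate 2, where Pcolce was highest too; its part in the result was not tested, and Pcolce was at 10.5 TPM in Chd4KO replicate 1, where the acinar sum was 230 TPM. Pcolce shares 112 exon bases with Fbxo24, which was not called in the test on reads.

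The other secreted and matrix genes overlapped between the groups. Igfbp4, which binds insulin-like growth factors, had 0.4999, 3.75, 0.188 and 0.497 TPM in Chd4KO replicates 1 to 4 and 0 to 0.752 TPM in Control. Its higher Chd4KO mean thus rests on replicate 2, the library with the highest acinar sum. Control replicate 2, with an acinar sum of 1568 TPM, had Igfbp4 at 0.196 TPM. The part of acinar cells in the Igfbp4 values was not tested. Tgm2, a protein cross-linking transglutaminase, lay between 0.861 and 1.71 TPM in Chd4KO and between 0.938 and 0.995 TPM in Control, and shares exon bases with Rprd1b on the opposite strand. Itih5, which binds hyaluronan, stayed at or under 0.323 TPM in Chd4KO and 0.130 TPM in Control. The chemokine gene Cxcl12 did not exceed 0.0866 TPM in Chd4KO or 0.046 TPM in Control, on 13 and 11 reads in all.

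Among receptors and surface proteins, Pdgfra was found in Chd4KO libraries alone, at a trace level. Pdgfra encodes the alpha receptor for platelet-derived growth factors and marks mesenchymal cells (chromosome 5, 75152292 to 75198215). It had 0.0275, 0.113, 0.0415 and 0.0758 TPM in Chd4KO replicates 1 to 4, from 2, 8, 3 and 9 reads, and was listed at 0 in all 4 Control libraries. Over the group, 0 reads in Control allow up to 3, which is 0.00561 TPM, and the pooled Chd4KO level of 0.0658 TPM was 11.7 times this limit. That ratio leaves out the counting error of the Chd4KO reads and the spread between mice. The groups do not overlap (exact permutation p = 0.0286, the smallest that 4 against 4 libraries allow), and Pdgfra was called in the test on reads (voom adjusted p = 0.0117). Beside it, the 10 mesenchymal and stellate markers summed to 1.58, 1.14, 1.70 and 0.967 TPM in Chd4KO replicates 1 to 4, against 0.207, 0.614, 0.818 and 1.03 TPM in Control replicates 1 to 4. Of these 10 markers Col1a1 and Acta2 were higher in Chd4KO without overlap, and the others overlapped. Vim, Col1a2 and Thy1 had lower means in Chd4KO, at 0.124, 0.0974 and 0.0330 TPM, against 0.200, 0.109 and 0.0333 TPM in Control. Col1a1 averaged 0.127 ± 0.0449 TPM in Chd4KO and 0.0118 ± 0.0102 TPM in Control (SD, n = 4 each, voom adjusted p = 0.0223), and Acta2 averaged 0.477 ± 0.0778 TPM in Chd4KO and 0.154 ± 0.113 TPM in Control (voom adjusted p = 0.112). The part of mesenchymal cells in this result was not tested.

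Ly6a, the stem cell antigen Sca-1, and Fcgrt, the neonatal receptor for immunoglobulin G, stayed under 1 TPM in all 8 libraries. Ly6a had 0 to 0.705 TPM in Chd4KO and 0 to 0.780 TPM in Control, and Fcgrt had 0 to 0.337 TPM and 0.0513 to 0.122 TPM. Neither group stood apart for either gene.

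No transcription or RNA regulator of the list reached 1 TPM in any library. Rest, the repressor of neuronal genes outside neurons, had 0.0573, 0.0784, 0.211 and 0.0584 TPM in Chd4KO replicates 1 to 4 and 0.0971 to 0.199 TPM in Control, from 23 reads in Chd4KO and 56 in Control. Smad3, which carries TGF-beta signals, had 0.398, 0.536, 0.275 and 0.0152 TPM in Chd4KO replicates 1 to 4, and 0.452 to 0.611 TPM in Control. Its lowest value, in Chd4KO replicate 4, rests on 1 read. Zfp36l1, which promotes the decay of AU-rich messenger RNAs, lay between 0 and 0.473 TPM in Chd4KO and between 0 and 0.189 TPM in Control, and the LIM-only factor gene Lmo4 between 0 and 0.160 TPM and between 0.0764 and 0.240 TPM. The Hippo pathway effector Yap1, nuclear factor Nfib and the leucine zipper factor Maf did not exceed 0.0649 TPM anywhere, on 1 to 21 reads per group. These 7 genes had at most 155 reads in a group, and none was called in the test on reads, which left out Maf.

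Mylk was the only gene of the list whose Chd4KO values all lay below Control. It encodes myosin light chain kinase, which starts contraction in smooth muscle and acts on the cytoskeleton elsewhere (chromosome 16, 34745210 to 35002420). It had 0.049, 0.0126, 0.0861 and 0.015 TPM in Chd4KO replicates 1 to 4, against 2.03, 0.920, 0.416 and 0.779 TPM in Control replicates 1 to 4. The difference rests on 14 reads in Chd4KO and 549 reads in Control. The means were 0.0407 ± 0.0346 TPM and 1.04 ± 0.696 TPM (SD, n = 4 each), 25.5-fold lower in Chd4KO (exact permutation p = 0.0286, the smallest possible). Mylk did not reach the filter of the main test, and without a filter the adjusted p was 0.112 in limma. In the test on reads its log2 change was -4.28 ± 0.75 (SE, voom adjusted p = 0.00887). E130310I04Rik, which shares 548 exon bases with Mylk on the opposite strand, had 0, 0, 0.0369 and 0 TPM in Chd4KO replicates 1 to 4, against 0.263, 0.201, 0 and 0.0834 TPM in Control replicates 1 to 4 (voom adjusted p = 0.436). Gm21691, which shares 224 exon bases with Mylk on the opposite strand, stayed at 1.69 to 2.26 TPM in Chd4KO and 2.08 to 2.41 TPM in Control.

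**Figure D3:**
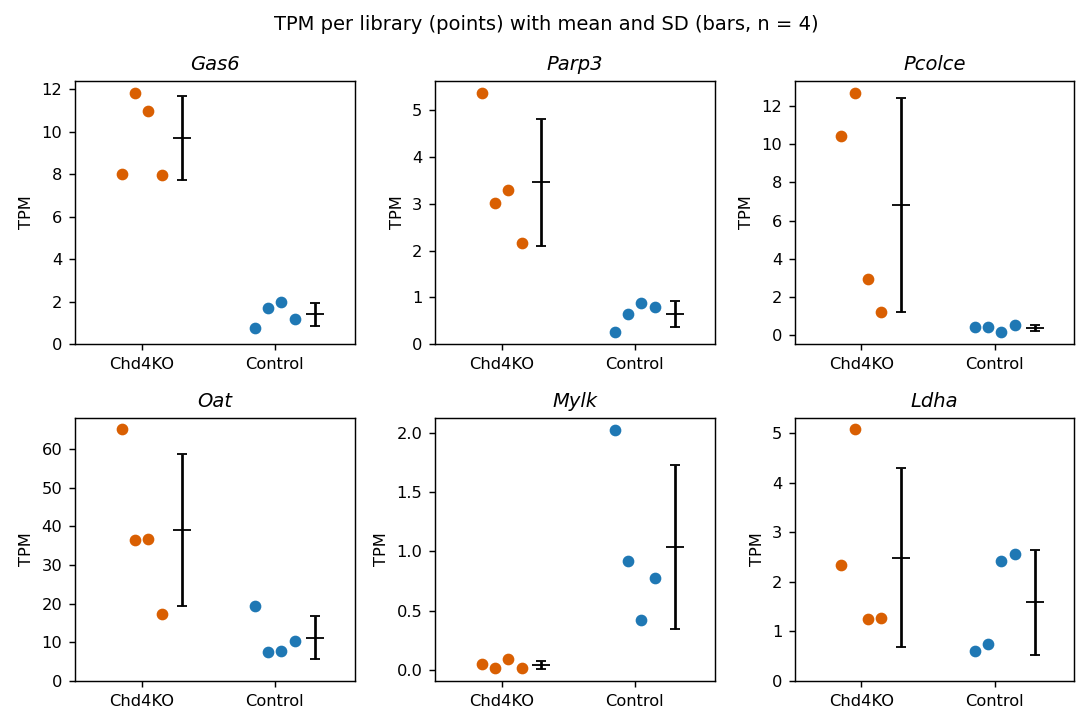
TPM of 6 disallowed genes in each library (points) with the group mean and SD (bars, n = 4), Chd4KO left of Control and each vertical axis with its own scale. Gas6, Parp3 and Pcolce lie above Control in all 4 Chd4KO libraries and Mylk below it, while Oat overlaps through Chd4KO replicate 4 (17.4 TPM) and Ldha overlaps broadly.

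The other cytoskeletal and signalling genes overlapped between the groups. Zyx, which encodes the focal adhesion protein zyxin, had 28.0, 14.9, 4.83 and 3.79 TPM in Chd4KO replicates 1 to 4 and 3.59 to 14.3 TPM in Control (limma adjusted p = 0.974), and shares 236 exon bases with Epha1 on the opposite strand. Ndrg2, a gene of stress and differentiation responses, had 1.54, 6.96, 2.08 and 0.398 TPM in Chd4KO replicates 1 to 4, against 0, 0.207, 0.703 and 0.406 TPM in Control replicates 1 to 4. Only Chd4KO replicate 4 lay within the Control range, and Ndrg2 was not called in the test on reads (log2 change 3.32 ± 0.97, SE, voom adjusted p = 0.0863).

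Arhgdib, a gene abundant in blood cells, had 0.404, 0.8292, 0.406 and 1.19 TPM in Chd4KO replicates 1 to 4, against 0.579, 0.221, 3.90 and 4.88 TPM in Control replicates 1 to 4. Control replicates 3 and 4 were high. Of the 13 leukocyte markers Ptprc and Cd3e were highest in the same libraries, Ptprc at 0.507 and 0.831 TPM and Cd3e at 0.648 and 0.952 TPM. The other 11 did not follow this order, and the sum of the list was 121 and 150 TPM in Control replicates 3 and 4, beside 127 to 224 TPM in Chd4KO and 146 and 131 TPM in Control replicates 1 and 2. The part of leukocytes in the Arhgdib values was not tested. The death-associated kinase gene Dapk2 lay between 0 and 0.430 TPM in Chd4KO and between 0 and 0.0911 TPM in Control.

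Parp3 was the second gene to rise. It encodes an ADP-ribosyltransferase that responds to DNA strand breaks (chromosome 9, 106470322 to 106476949, minus strand). It had 5.37, 3.02, 3.30 and 2.17 TPM in Chd4KO replicates 1 to 4, against 0.267, 0.642, 0.876 and 0.796 TPM in Control replicates 1 to 4. The groups do not overlap, and every Control library was under 1 TPM. The means were 3.46 ± 1.36 TPM and 0.645 ± 0.270 TPM (SD, n = 4 each), 5.37-fold higher in Chd4KO, on 406 reads in Chd4KO and 136 in Control. The log2 change was 1.41 ± 0.25 (SE, limma adjusted p = 0.0182), and 2.66 ± 0.37 in the test on reads (voom adjusted p = 0.00293). The limma call was lost when any 1 Control library was left out, with adjusted p between 0.0566 and 0.0753, and Parp3 could not be tested without a Chd4KO library. Rrp9 on the opposite strand, with 20 shared exon bases, was at 6.42 to 13.1 TPM in Chd4KO and 10.3 to 13.3 TPM in Control.

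Ccnd1, which drives entry into the cell cycle, was at 19.4 ± 6.11 TPM in Chd4KO and 19.02 ± 3.05 TPM in Control (SD, n = 4 each, limma adjusted p = 0.983). Its log2 change of -0.01 ± 0.25 (SE) was positive with median-of-ratios scaling, at 0.26. It shares 1100 exon bases with LTO1 on the opposite strand, so part of its reads cannot be assigned. Of 8 related cyclins, kinases and inhibitors 6 were tested and none was called, among them Ccnd2, the main D-type cyclin of mouse beta cells, at 148 ± 32.4 and 176 ± 21.3 TPM, and its kinase Cdk4, at 122 ± 13.0 and 134 ± 5.94 TPM.

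By library, the 31 genes summed to 183, 151, 116 and 79.0 TPM in Chd4KO replicates 1 to 4, against 101, 77.1, 82.6 and 88.4 TPM in Control replicates 1 to 4. Chd4KO replicate 4 lay within the Control range and the other 3 Chd4KO libraries lay above them. Without the 5 genes highest in Control the sum was 20.1 to 56.3 TPM in Chd4KO and 13.5 to 19.1 TPM in Control. Most of this difference rests on Gas6, Pcolce and Parp3, with means of 9.70, 6.83 and 3.46 TPM in Chd4KO and 1.41, 0.360 and 0.645 TPM in Control. The full sum also holds Oat, at 39.0 and 11.1 TPM, so neither sum shows a rise across the list. Of the 31 genes 11 had their highest value in Chd4KO replicate 2 and 8 in Chd4KO replicate 1, while among the Chd4KO libraries 15 had their lowest value in replicate 4, where insulin took 62.0% of TPM. These sums describe the libraries and were not tested.

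**Figure D4:**
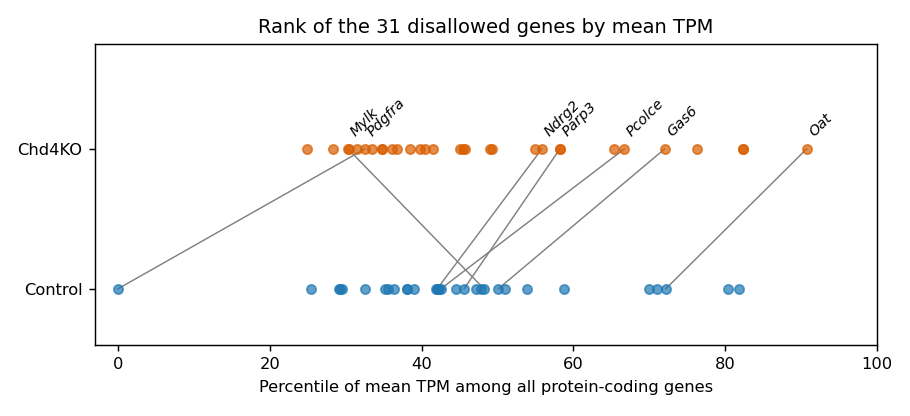
Each point is 1 disallowed gene, placed by the percentile of its mean TPM among 21974 protein-coding genes, with Chd4KO above Control; lines join the values of 7 genes. Gas6 stood at percentile 72.0 in Chd4KO and 50.1 in Control, Oat at 90.7 and 72.2, Pcolce at 66.7 and 42.5, and Mylk at 30.3 and 48.2, while Pdgfra was listed at 0 in Control.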

How the data were processed

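RNA of flow-sorted mouse beta cells was sequenced in 4 Chd4KO and 4 Control libraries, which the labels' protocols describe as SMART-Seq cDNA made into Nextera XT libraries. Such libraries do not mark strand. The authors deposited 1 table of TPM values per library for 55487 Ensembl gene identifiers. The submitters' processing notes name build mm10 and the tools HISAT2, HTSeq, DESeq2, Trimmomatic and FastQC, while versions and annotation release are not given in the sources used here. TPM is scaled to a fixed total, so a larger insulin share lowers every other gene.

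Symbols, positions and merged exon lengths came from GENCODE M21, which holds 99.5% of the identifiers. TPM multiplied by exon length came out as whole reads, up to 1 factor per library, for 98.5 to 98.7% of values (tolerance 0.05 of a read), which gave reads per gene. Intervals and limits from reads cover counting error only. Genes were tested by limma 3.58.1 (R 4.3.3) after taking log2(TPM + 1), with no term but genotype and with Benjamini-Hochberg adjustment over genes with at least 1 TPM in at least 4 libraries. Fold changes on this scale understate those of low genes. Fold values in TPM are ratios of group means. Single values were compared with an exact two-sided permutation test. The fit was also run on simulated data in which only genes of at least 5 TPM were changed. How well it finds changes in lower genes, among them most of the list, was not tested. Figures and tables used Python 3.11.15, pandas 2.3.3 and matplotlib 3.10.9. All 31 genes are named. Marker lists of other cell types are given by sums and by the markers beside a result. Of each other related list, up to 4 called members are named and, where at most 1 was called, the 2 with the highest TPM, of which 1 is not reported here; a few others, chosen after their values were seen, are given as such or bear on a list gene. The members and lists were chosen with earlier results of these data known. Alternatives were another pseudocount, no filter or a stricter one, 3 other scalings, a variance trend, a replicate block, voom on reads and leaving out each library.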

Additional observations from a re-analysis of the deposited data

Results flagged for a closer look

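In 65 groups of 4 libraries (31 genes, the Ldha share and the summed TPM, in Chd4KO and in Control, leaving out Pdgfra in Control, which was all at 0), 9 held a library far from the other 3 by Dixon's criterion for 4 values. Chance gives about 1 in 20 such groups if values are normally distributed. Trace counts are not, and Maf, with reads in 1 library of each group, passes at any value. Above 1 TPM the flagged groups were Igfbp4 at 3.75 TPM in Chd4KO replicate 2 (others 0.188 to 0.4999 TPM), Cat at 6.28 TPM in the same library (others 2.13 to 2.81 TPM) and Mgst1 at 7.30 TPM in Chd4KO replicate 4 (others 5.70 to 5.89 TPM). Chd4KO replicate 2 is the library with the acinar marker sum of 39895 TPM, and the part of acinar cells in Igfbp4 and Cat was not tested. Below 1 TPM these were Slc16a1 at 0.499 TPM in Chd4KO replicate 1 (16 reads), Rest at 0.211 TPM in Chd4KO replicate 3 (11 reads), Yap1 at 0.0596 TPM in Chd4KO replicate 1 (4 reads), Nfib at 0.0649 TPM in Control replicate 2 (18 reads), and Maf at 0.0167 TPM in Chd4KO replicate 1 (1 read) and 0.0228 TPM in Control replicate 4 (3 reads).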

How the results depend on the processing

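Gas6 was called in all 19 alternative fits (adjusted p between 0.00105 and 0.0134), Parp3 in 8 of the 13 that tested it, Oat in 8 of 19 and Pcolce in 6 of 13. The number of list genes called was 2 as reported above, 3 with a pseudocount of 0.1 (with Pcolce added), 4 with median-of-ratios scaling, with scaling without hormones and mitochondrial genes, with quantile normalisation and with voom on recovered reads, 6 with voom on genes of at least 10 reads, 1 with a minimum of 5 TPM, and 1 to 2 when each library was left out (2, Gas6 and Oat, without Chd4KO replicate 4). Over all genes the calls numbered 451 (233 higher, 218 lower) of 15189 tested. They numbered 380 (219, 161) of 15189 with a pseudocount of 0.1 and 220 (98, 122) of 9970 with a minimum of 5 TPM. Of the same 15189 genes 724 (444, 280) were called with median-of-ratios scaling and 755 (466, 289) with quantile normalisation. The voom fits called 782 (498, 284) of 15172 and 1092 (760, 332) of 23146. When each library was left out the calls ran from 135 of 14854 (without Chd4KO replicate 3) to 630 of 14959 (without Chd4KO replicate 4). Scaling without hormones gave 351 higher and 314 lower. Every fit that called 4 or 6 list genes thus also called more of all genes than the main fit. The replicate block gave 274 calls (158 higher, 116 lower), Parp3 had an adjusted p of 0.0754 in it and Oat one of 0.0497. Libraries with the same number come from different animals, and their deviations correlated at -0.02, 0.43, 0.08 and 0.04, so the numbers do not pair them. List genes without overlap between the groups numbered 9 with median-of-ratios scaling and 8 with scaling without hormones and mitochondrial genes. They numbered 5 to 8 when each library was left out (8 without Chd4KO replicate 4), and 9 without Chd4KO replicates 2 and 4. That last alternative was chosen after seeing the data, as was voom with at least 10 reads. The share of all genes without overlap is not given for these settings, and fewer libraries make a lack of overlap easier for any gene. These counts therefore cannot be set against the 13.1% and 14.8% of the main scaling. The difference of the summed TPM, Chd4KO minus Control, was 44.96 TPM, 60.6 with median-of-ratios scaling, 102 with scaling without hormones and mitochondrial genes, 62.3 without Chd4KO replicates 2 and 4, and 28.1 (without Chd4KO replicate 1) to 62.7 (without Chd4KO replicate 4) when each library was left out. The median log2 change of all genes tested was -0.25, and it was -0.023 with median-of-ratios scaling and -0.027 with quantile normalisation, so the log2 changes of list genes shift with it. The uncalled log2 changes near 0 turned sign. With median-of-ratios scaling Cat was at 0.033, C1qbp at 0.16 and Ccnd1 at 0.26, with quantile normalisation at 0.083, 0.12 and 0.22, with voom at 0.093, 0.18 and 0.29, and with voom on at least 10 reads at 0.076, 0.17 and 0.27. Scaling without hormones gave 0.035 for C1qbp and 0.14 for Ccnd1, the 2 voom fits gave 0.072 and 0.052 for Mgst1, and Ccnd1 was at 0.36 without Chd4KO replicates 2 and 4. When each library was left out, Zyx lay between -0.44 and 0.42 (negative without Control replicate 1 or Chd4KO replicate 1 or 2), Cat between -0.45 and 0.044 and Mgst1 between -0.64 and 0.20 (both positive without Control replicate 1), and Ccnd1 between -0.16 and 0.15 (positive without Control replicate 3 or Chd4KO replicate 2 or 4). With 1 library left out, the exact permutation p of Mylk and of Pdgfra was 0.0286 or 0.0571. Groups without overlap can give no other value, so this is no further check of these genes. Ldha, Cat, Parp3 and Pcolce gave no value with a minimum of 5 TPM, and Parp3 and Pcolce gave none when a Chd4KO library was left out, since the filter still asked for 4 libraries. The cause of these shifts was not tested. Depth limits the 14 list genes that stayed under 1 TPM in all 8 libraries.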

Other observations

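Rest acts with corepressors such as LSD1. None of 9 corepressor genes, all of them tested, was called, among them Kdm1a, which encodes this histone demethylase, at 55.2 ± 20.6 TPM in Chd4KO and 59.2 ± 6.84 TPM in Control (SD, n = 4 each), and Hdac1, a deacetylase, at 51.7 ± 14.95 and 58.2 ± 7.92 TPM. Of 12 genes known as Rest targets in other cells 10 were tested, of which 1 fell and 9 were not called. Chga, the granule protein chromogranin A, fell to 6888 ± 1883 TPM in Chd4KO, against 18048 ± 1398 TPM in Control (limma adjusted p = 0.0155), and the related Chgb averaged 3237 ± 1818 TPM in Chd4KO and 7907 ± 2156 TPM in Control, without overlap (limma adjusted p = 0.187, voom adjusted p = 0.037). The granin gene Scg2 averaged 9373 ± 4442 TPM in Chd4KO and 4942 ± 558 TPM in Control, with overlap (limma adjusted p = 0.336, voom adjusted p = 0.0181). Vgf, the only 1 of the 12 that was higher without overlap, averaged 39.2 ± 31.2 TPM in Chd4KO and 13.2 ± 2.97 TPM in Control (limma adjusted p = 0.236, voom adjusted p = 0.0566). Rest itself did not exceed 0.211 TPM in any library.

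Partners of the growth factor and Hippo or TGF-beta genes of the list held no called member, 3 and 8 of them being tested. The highest were Igf2r, at 14.9 ± 12.1 TPM in Chd4KO and 20.2 ± 3.55 TPM in Control, and Pdgfa, at 9.55 ± 8.91 and 11.5 ± 2.14 TPM, and on the TGF-beta side Smad4, at 50.8 ± 27.7 and 57.2 ± 6.55 TPM, and Tgfbr1, at 8.98 ± 4.52 and 8.44 ± 0.669 TPM (SD, n = 4 each). Below the filter, 2 genes chosen after their values were seen did not overlap between the groups. Igf2, a fetal growth factor, had 0.193, 0.495, 0.460 and 0.457 TPM in Chd4KO replicates 1 to 4, against 0.0247, 0.00943, 0.0149 and 0 TPM in Control replicates 1 to 4 (voom adjusted p = 0.00618). Tgfb1, whose receptor activates Smad3, had 1.94, 1.18, 0.659 and 0.486 TPM in Chd4KO replicates 1 to 4, against 0.0840, 0.0321, 0.254 and 0.186 TPM in Control replicates 1 to 4 (voom adjusted p = 0.00887). Dnmt3a and Dicer1, known from mouse work to hold disallowed genes low in beta cells, were at 16.7 ± 5.14 and 5.19 ± 2.46 TPM in Chd4KO, against 21.3 ± 2.23 and 6.50 ± 0.463 TPM in Control, and neither was called.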
